A study of Xenopus laevis with 2 samples.

Results

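Glycolysis splits glucose into pyruvate in the cytosol, and lactate dehydrogenase then interconverts pyruvate and lactate. The enzymes are present in almost every cell, but several exist as isoforms that differ between muscle, brain and embryonic tissue. Early frog embryos carry stores of yolk and glycogen, and differentiating somite muscle is rich in the muscle forms of these enzymes. The transcripts described here encode 10 enzyme names along that route, from hexokinase to lactate dehydrogenase: hk1, gpi, aldoa, aldoc, tpi1, gapdh, pgk1, eno1, pkm and ldhb. They were chosen by gene symbol. A probe set is a group of probes read together as 1 signal. Every probe set with a single platform symbol was taken if that symbol, without its copy suffix, was one of these names. The rule gave 17 of 15491 probe sets, belonging to 14 of 7531 genes. Xenopus laevis is allotetraploid, so a gene can have a copy on the long subgenome (.L) and one on the short subgenome (.S).

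The RNA came from dorsal posterior pieces of Xenopus laevis neurulae at stage 18, said by the labels to be mostly mesoderm, and was read on an Affymetrix expression array. One group was wildtype. The other was depleted of Derriere (gdf3), a secreted TGF-beta family ligand of mesoderm and posterior patterning, with 2 ng of antisense morpholino and a GFP tracer placed in both dorsal blastomeres of 4-cell embryos. The sources used here do not say whether wildtype embryos were injected or how many embryos were pooled. There was 1 array a group, so no difference has a replicate check, no p-value is given, and precision is limited by the number of arrays.

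The transcript of the targeted gene did not settle the labels. The probe set of gdf3.S read 552.0 in the wildtype-labelled array and 2318.6 in the depleted-labelled array, which is 4.17-fold higher. A morpholino need not lower its target transcript, but if the labels were exchanged, every direction below would be the opposite. The arrays are therefore called wildtype-labelled and depleted-labelled. The median signal was 75.4 and 74.1. Log2 ratios below set the depleted-labelled array over the wildtype-labelled array, after raising signals under 19.7 to that floor and centring. As a guide to part of the technical error, the ratios of different probe sets of 1 gene had a pooled SD of 0.228 on the log2 scale over 580 genes. It was taken from probe sets past the signal filter given below. It does not hold errors that all probe sets of a gene share, such as in labelling, or the spread between embryos.

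Both copies of pyruvate kinase read higher in the depleted-labelled array, by 1.86-fold and 1.77-fold, and no other member differed by 1.5-fold. The 14 genes had a median log2 ratio of 0.14 with an SD of 0.40 between genes, 9 above 0 and 5 below, against 46.1% above 0 among all 6348 genes with a ratio, whose median was -0.03. Of the 14, 2 were 1.5-fold or more higher and 0 were 1.5-fold or more lower. Among all genes with a ratio, dim ones included, 2.76% were 1.5-fold or more higher and 5.15% were 1.5-fold or more lower. No member differed by 2-fold in either direction, against 0.425% of genes higher and 0.536% lower by that measure. Without the pyruvate kinase copies the 12 remaining genes lay between -0.43 and 0.42, with a median of 0.12, 7 above 0 and 5 below. A probe set was held to pass the signal filter when its mean signal reached 75, the median over the array. Of the 17 probe sets 11 passed and 6 did not, and 1 of the 6 was under the floor in both arrays and has no ratio. With only the probe sets that passed, 5 of 11 genes were below 0.

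**Figure D1:**
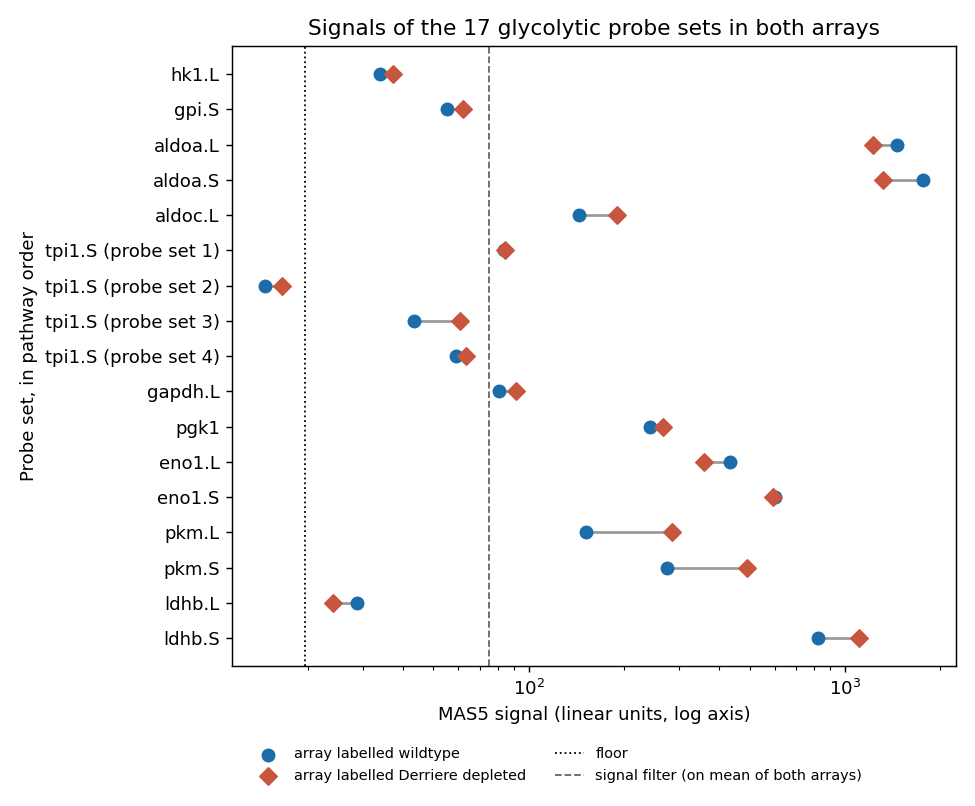
MAS5 signal on a log axis for each of the 17 probe sets in pathway order, with a circle for the wildtype-labelled array, a diamond for the depleted-labelled array, a dotted line at the floor of 19.7 and a dashed line at the signal filter of 75. The widest gaps among probe sets past the filter are those of pkm.L and pkm.S, and the aldoa and eno1 diamonds lie left of or on their circles. Signals of different probe sets are not comparable as levels.

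Among the members, the first steps of the pathway were read only by dim probe sets. For hk1.L, the hexokinase that traps glucose in the cell as glucose phosphate, the signal was 34.0 in the wildtype-labelled array and 37.2 in the depleted-labelled array, a log2 ratio of 0.12. For gpi.S, the isomerase that turns glucose phosphate into fructose phosphate, it was 55.1 and 62.0, a log2 ratio of 0.16. Both differences were smaller than the SD between probe sets of 1 gene, which was taken from brighter probe sets. Both signals lay under the filter, so neither gives a direction that can be relied on. Outside the members, another hexokinase gene, hk2.L, passed the filter and read 94.4 and 114.1, a log2 ratio of 0.26.

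The aldolases, which cleave fructose bisphosphate into triose phosphates, ran in opposite directions by isoform. The muscle-type aldolase gene aldoa read lower in the depleted-labelled array in both copies. Its .L copy, aldoa.L, read 1462.9 in the wildtype-labelled array and 1228.4 in the depleted-labelled array, a log2 ratio of -0.26. Its .S copy, aldoa.S, read 1762.2 and 1320.1, a log2 ratio of -0.43 or 1.34-fold higher in the wildtype-labelled array. A further probe set, which the platform assigns to both copies and which is therefore not counted as a member, read 1617.9 and 1203.4, a log2 ratio of -0.44. All 3 readings were thus on the same side, by 1 to 2 times the SD between probe sets of 1 gene, and none reached 1.5-fold. The shared probe set reads the same copies as the others, so the 3 readings are not independent of each other. The brain-type aldolase gene aldoc.L read 144.4 and 190.2, a log2 ratio of 0.39 or 1.31-fold higher in the depleted-labelled array. Of the kept probe sets, those past the signal filter, 8.55% were at least as high as aldoc.L and 9.05% at least as low as aldoa.S.

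Most muscle markers, though not the myogenic factors, also read lower. Of 14 genes of a skeletal muscle marker list with a ratio, 11 were below 0 and 5 were 1.5-fold or more lower, with a median log2 ratio of -0.31. Those below 0 include ckb.L, at -0.44, a creatine kinase gene other than the muscle form ckm. Over all genes with a ratio, 46.1% were above 0 and 5.15% were 1.5-fold or more lower. The summed signal of the list was 18317.8 in the wildtype-labelled array and 14870.6 in the depleted-labelled array. Its lowest members were tnnt3.S at -0.78, tnnc2.S at -0.68 and tpm1.L at -0.68, all parts of the thin filament. Not all members went that way: the myogenic factor genes myod1.S, myod1.L and myf5.L read 0.07, 0.06 and -0.09, and the calcium pump gene atp2a1.S read 0.08. The marker acta1.S was under the floor in both arrays. The part of muscle content in the aldolase values was not tested, and in such bulk pieces fewer cells of a type and less RNA per cell cannot be told apart.

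Triose phosphate isomerase, which interconverts the triose products of that cleavage, shows how far probe sets of 1 gene can part. Of the 4 probe sets of tpi1.S, the brightest read 83.8 in the wildtype-labelled array and 84.2 in the depleted-labelled array, a log2 ratio of -0.00. A dimmer one read 43.3 and 60.8, a log2 ratio of 0.48. The other two read 58.8 and 63.5, a log2 ratio of 0.10, and 14.7 and 16.6, both under the floor. The gene's mean of 0.19 therefore rested on dim probe sets, and the single one past the filter read nearly the same in both arrays.

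In the middle of the pathway, where ATP and NADH are first gained, the member probe sets differed little, but control probe sets for the same enzyme did not follow them. The signal of gapdh.L, the dehydrogenase that oxidises glyceraldehyde phosphate, was 80.8 in the wildtype-labelled array and 91.5 in the depleted-labelled array, a log2 ratio of 0.17. The array also carries Gapd control probe sets along 1 transcript, outside the members, and the brighter of them read the other way. The one at the 3' end read 1178.0 and 932.3, a log2 ratio of -0.35, the middle one 343.5 and 239.3, a log2 ratio of -0.53, and the one at the 5' end 36.5 and 38.3, a log2 ratio of 0.06. The direction of gapdh thus depended on the probe set, and the sources used here do not say which copy the controls read. The signal at the 3' end over that at the 5' end was 32.3 in the wildtype-labelled array and 24.3 in the depleted-labelled array. The same measure was also lower in the depleted-labelled array for bAct, at 4.74 and 3.54, and for a3Act, at 206.5 and 126.3, but higher for a1Act, at 65.3 and 71.6. The 5' signals of a3Act, 23.5 and 33.5, lay near the floor and those of Gapd lay under the filter, so these 3' to 5' ratios are uncertain. The part of RNA or labelling quality in these values was not tested. For pgk1, the phosphoglycerate kinase that makes the first ATP, the signals were 242.1 and 265.3, a log2 ratio of 0.12.

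Enolase, which forms phosphoenolpyruvate, was level or slightly lower in the depleted-labelled array. Its copy eno1.S read 603.1 in the wildtype-labelled array and 594.4 in the depleted-labelled array, a log2 ratio of -0.03. The copy eno1.L read 433.0 and 358.0, a log2 ratio of -0.28. The copies differed by 0.25, close to the SD between probe sets of 1 gene.

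Pyruvate kinase (pkm), which makes pyruvate and the last ATP of the pathway, had the highest log2 ratios of all members. The probe set of pkm.L read 151.6 in the wildtype-labelled array and 283.3 in the depleted-labelled array, a log2 ratio of 0.89 or 1.86-fold. For pkm.S the signals were 274.7 and 490.1, a log2 ratio of 0.83 or 1.77-fold. Both passed the signal filter in the mean of the arrays and each array alone. Of the 7747 kept probe sets, 41 (0.529%) were at least as high as pkm.L and 54 (0.697%) at least as high as pkm.S, against 2.52% that were 1.5-fold or more higher. In mammals pkm makes a muscle form and an embryonic form by alternative splicing, and the sources used here do not say which form these probe sets read.

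Lactate dehydrogenase B, the heart-type subunit that favours the use of lactate, was measured well in 1 copy only. The brighter of its probe sets, ldhb.S, read 821.5 in the wildtype-labelled array and 1105.4 in the depleted-labelled array, a log2 ratio of 0.42 or 1.34-fold. The dim probe set of ldhb.L read 28.7 and 24.1, just above the floor, a log2 ratio of -0.26 that came to -0.09 with a constant added in place of the floor. As for hk1.L and gpi.S, no direction can be relied on there. The gene table lists each of these symbols as an older name of the other copy, so which copy each probe set reads is less certain than for the other enzymes. Of the kept probe sets 7.15% were at least as high as ldhb.S.

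**Figure D2:**
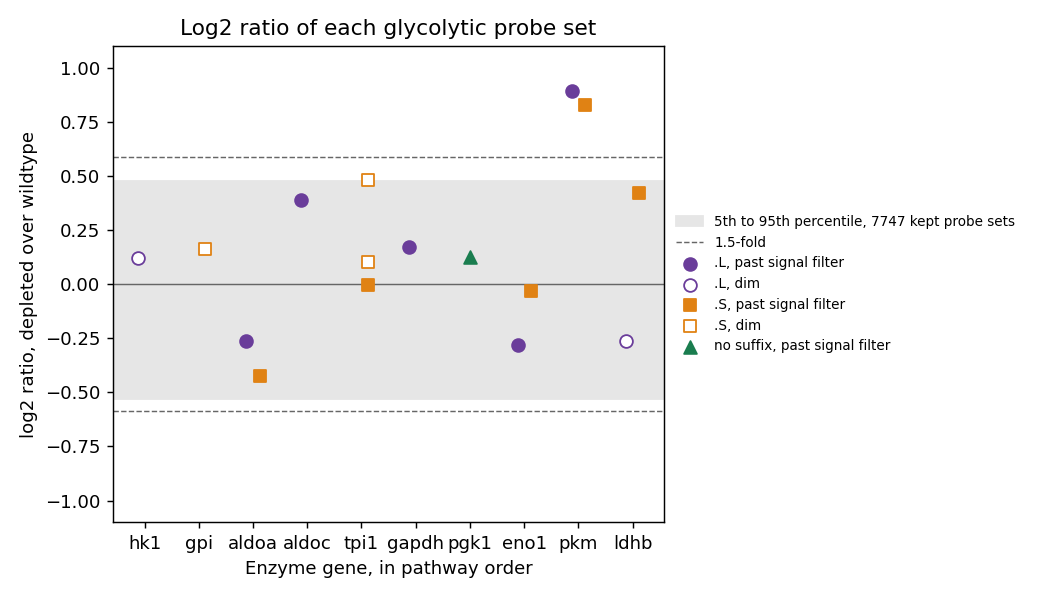
Log2 ratio, depleted-labelled array over wildtype-labelled array, of each of the 16 probe sets with a ratio, by enzyme in pathway order. Circles are .L copies, squares .S copies and the triangle pgk1, open symbols are dim probe sets, the band spans the 5th to 95th percentile of the 7747 kept probe sets (-0.53 to 0.47) and dashed lines mark 1.5-fold. Only the pkm probe sets lie beyond the 1.5-fold lines, at 0.89 and 0.83.

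Both copies of an enzyme could be compared for aldoa, eno1, pkm and ldhb. The pkm copies differed from each other by 0.07 on the log2 scale, the aldoa copies by 0.16, the eno1 copies by 0.25 and the ldhb copies, 1 of them dim, by 0.68. Over the 524 gene pairs on the array with both copies past the filter, the median size of that difference was 0.21, and 60.9% of pairs had the same sign. The 3 glycolytic pairs past the filter all had the same sign, pkm above 0 and aldoa and eno1 below. Pairs with both copies above 0 made up 30.9% of the 524 and pairs with both below 0 made up 30%. Of the 524 pairs 5 (0.954%) were 1.5-fold or more higher in both copies, and pkm was one of them. The others, looked up after their values were seen, were bambi, birc5, gyg1 and ventx2.1. Near-identical copies can share signal between their probe sets, so the pkm readings may not be independent of each other, which was not tested.

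**Figure D3:**
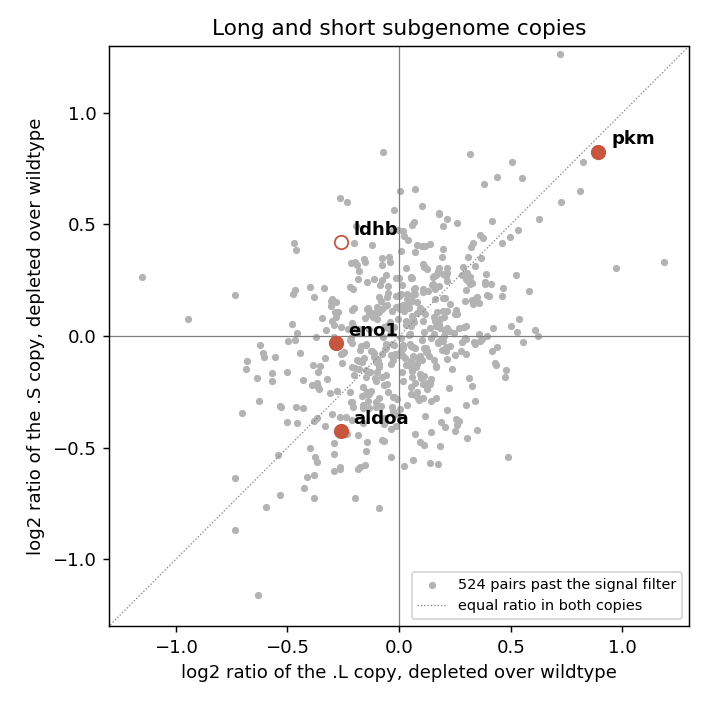
Log2 ratio of the .S copy against that of the .L copy, depleted-labelled array over wildtype-labelled array, for 524 gene pairs past the signal filter (grey) and the 4 glycolytic pairs (named, open where a copy is dim). The pkm point lies near the line of equal ratios at 0.89 and 0.83, aldoa and eno1 lie in the lower left, and ldhb lies off the line.

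Genes of glycolysis outside the 10 names, regulators included, were mostly below 0. Of 13 genes with a ratio 9 were below 0 and 4 above, against 46.1% above 0 among all genes. Their median log2 ratio was -0.16. Of the 13, 0 were past 1.5-fold, against 2.76% of all genes higher and 5.15% lower. The 13 are not all enzymes of the pathway: gckr.L, at -0.31, encodes a regulator of glucokinase. The enzyme genes went both ways, with hk2.L at 0.26 and the dim pfkp.S and pgam1.S at 0.41 and 0.18. The brighter copies pfkp.L and pgam1.L, both past the filter, read -0.21 and -0.16. The muscle phosphofructokinase gene pfkm.S, whose enzyme commits sugar to the pathway, read 687.3 and 616.8, a log2 ratio of -0.17. The muscle phosphoglycerate mutase gene pgam2.L read 47.2 and 32.1, a log2 ratio of -0.57, and the muscle-type lactate dehydrogenase gene ldha.S read 37.8 and 28.2, a log2 ratio of -0.43, both dim. The regulator of fructose bisphosphate level pfkfb4.S had a mean of 0.42 that combined a dim probe set at 0.96 with a brighter one at -0.13. The gene pgam5.S, a mitochondrial phosphatase named after the mutases, read -0.30. The muscle enolase eno3.L, ldha.L and bpgm.S were under the floor in both arrays.

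All 6 genes of glucose and lactate transport with a ratio were below 0, against 46.1% above 0 among all genes. Their median log2 ratio was -0.20, and 3 more genes of the list were under the floor in both arrays. The lactate exporter gene slc16a3.L read 1047.1 and 907.0, a log2 ratio of -0.22. Its dim copy slc16a3.S read 39.8 and 23.7, a log2 ratio of -0.76. That copy was the single member of the list past 1.5-fold, against 5.15% of all genes that much lower. The glucose transporter gene slc2a2.L read -0.31, and bsg.L, the chaperone of lactate transporters, read -0.18.

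Glycogenin, the protein primer on which glycogen is built, read higher in both copies in the depleted-labelled array. Its copy gyg1.L read 289.0 and 480.3, a log2 ratio of 0.72, and the probe sets of gyg1.S read 503.2 and 875.1, and 116.5 and 156.1, with a mean log2 ratio of 0.60. The muscle glycogen phosphorylase gene pygm.L read 0.20 and pygm.S 0.11, and fbp1.L, of gluconeogenesis, read -0.01. The mean of pygm.S combined a bright probe set, 2346.8 and 2758.1, at 0.22 with a dim one at -0.00. Of the 6 genes of gluconeogenesis and glycogen with a ratio 5 were above 0, against 46.1% of all genes, with a median of 0.18. A further 5 genes of the list, among them both pck1 copies and pck2.L, were under the floor in both arrays. Only fbp1.L therefore stood for gluconeogenesis. The gyg1 copies were the 2 genes of that list 1.5-fold or more higher, against 2.76% of all genes.

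The pentose phosphate branch, which leaves glycolysis at glucose phosphate, had 5 genes with a ratio, 4 of them above 0, against 46.1% of all genes. Their median log2 ratio was 0.25. The ribose phosphate isomerase gene rpia.L read 663.2 and 901.6, a log2 ratio of 0.43. The transaldolase gene taldo1.L read 0.25 and the epimerase gene rpe.S read 0.01. The dehydrogenase gene pgd.L was under the floor in the wildtype-labelled array, and was at least 1.32-fold higher in the depleted-labelled array from 1 dim probe set.

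The fate of pyruvate in mitochondria showed no common direction. Of 33 genes of pyruvate entry and the citric acid cycle 18 were above 0 and 15 below, against 46.1% above 0 among all genes. Their median log2 ratio was 0.02. The kinase gene pdk4.S, whose enzyme shuts off pyruvate dehydrogenase, read 387.9 and 692.0, a log2 ratio of 0.83, while its copy pdk4.L read -0.07. The related kinase gene pdk1.S went the other way, with a mean of -0.58 over 3 probe sets, all lower, just short of 1.5-fold. Its copy pdk1.L read 0.02. The isocitrate dehydrogenase subunit gene idh3b.S read 106.8 and 64.5, a log2 ratio of -0.74, and the dim succinyl-CoA ligase gene sucla2.S read 32.2 and 63.4, a log2 ratio of 0.97. The genes of this list past 1.5-fold were pdk4.S, idh3b.S and sucla2.S, 2 of them higher and 1 lower, against 2.76% and 5.15% of all genes. The brightest genes of this list, idh2.S and mdh1.S, read 0.07 and -0.10, though mdh1 encodes the cytosolic malate dehydrogenase. The gene of the mitochondrial form read 0.27 in mdh2.L and -0.38 in mdh2.S.

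The shuttles that carry NADH electrons from glycolysis into mitochondria had 7 genes with a ratio, 4 of them above 0, against 46.1% of all genes. Their median log2 ratio was 0.08. The glycerol phosphate dehydrogenase gene gpd1.L read 0.48 and the related gpd1l.L -0.20, from 764.5 to 670.1. The aspartate aminotransferase gene got1.S read 0.24, the aspartate-glutamate carrier gene slc25a13.L 0.08, and the dim oxoglutarate carrier gene slc25a11.S -0.61. The latter was the single shuttle gene past 1.5-fold, against 5.15% of all genes that much lower. Its copy slc25a11.L, also dim, read 0.16. Of 14 known regulators of glycolytic genes 6 were above 0, against 46.1% of all genes, with a median of -0.05. Of these regulators 0 were past 1.5-fold, against 2.76% of all genes higher and 5.15% lower. The genes myc.S and myc.L, of a transcription factor that drives growth, read 0.19 and -0.05, and the dim genes epas1.S, mycn.S and egln3.S read 0.54, -0.47 and -0.43.

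**Figure D4:**
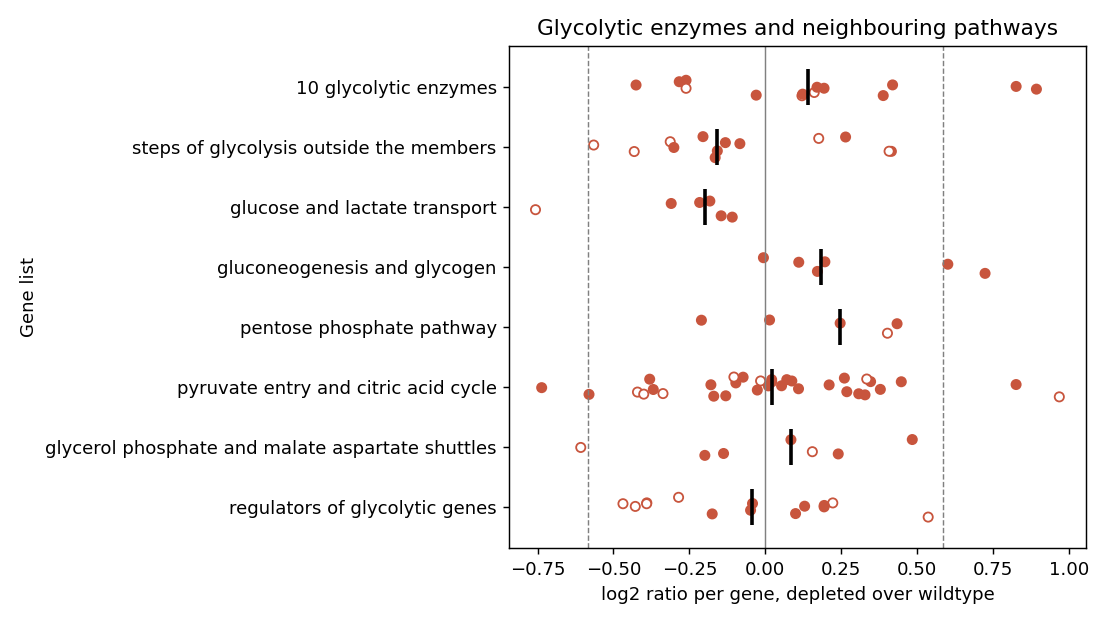
Log2 ratio per gene, depleted-labelled array over wildtype-labelled array, for the 14 glycolytic genes and 7 lists of neighbouring pathways; open points are genes with no probe set past the signal filter, the black bar is each list's median and dashed lines mark 1.5-fold. Medians run from -0.20 for transporters to 0.25 for the pentose phosphate pathway, and the pkm points lie at 0.89 and 0.83 in the top row.

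Markers of other cell types differed between the arrays beside these values. Of 11 epidermal genes 9 were above 0 and 3 were 1.5-fold or more higher, with a median log2 ratio of 0.43 and a summed signal of 13469.9 in the wildtype-labelled array and 13864.6 in the depleted-labelled array. The shares over all genes were 46.1% above 0 and 2.76% 1.5-fold or more higher. The epithelial cadherin gene cdh1.S read 0.95, from 52.0 to 101.2, and the keratin gene krt12.4.L 0.48, while its copy krt12.4.S read -0.15 and the lectin gene itln1.L -0.24, from 8244.9 to 7025.5. Of 12 neural genes with a ratio 8 were below 0 and 2, both dim, were 1.5-fold or more lower, against 5.15% of all genes. The neural list had a median of -0.25 and summed signals of 3398.8 and 2775.2. The neural list genes past 1.5-fold were elavl3.L, at -0.92, and nrp1.L. The latter was under the floor in the depleted-labelled array and at least 2.06-fold lower there. The brightest genes of that list, snap25.L and sox3.S, read -0.55 and 0.19. Of 10 notochord genes 8 were below 0 and 3 were 1.5-fold or more lower, against 5.15% of all genes. That list had a median of -0.20 and summed signals of 5183.5 and 4880.0. Those past 1.5-fold were the collagen gene col9a2.L at -1.27, the transcription factor genes foxa4.S at -0.72 and the dim not.S at -0.73. The brightest notochord genes, tbxt.S and chrd.1.S, read 0.16 and 0.09 and were the 2 above 0. Markers of muscle, notochord, neural tissue and epidermis were thus all present in the pieces, and the part of tissue makeup in the pyruvate kinase and glycogenin values was not tested.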

How the data were processed

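The authors deposited linear intensities per probe set, computed with MAS5 according to the submitters' processing notes. The sources used here do not give its scaling target. Total RNA (6 µg) was labelled with biotin, per the labels' protocols. Of 15611 probe sets, 120 controls were set aside. Of the rest, 9304 had 1 platform symbol, 195 had several and 5992 had none. All 14 member genes were matched by Entrez ID to the Xenopus_laevis_v10.1 gene table under the same symbol; the copies gapdh.S, gpi.L, pgk1.L and tpi1.L in that table were not analysed here.

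A floor was set at the 25th percentile of both arrays, 19.7. Probe sets under it in both arrays got no ratio. Log2 ratios were centred on the median of the 7747 kept probe sets, a shift of 0.0089. A gene was the mean over its probe sets with a ratio. Genes were counted by fixed rules of size, 1.5-fold and 2-fold. The members and lists were chosen with earlier results of these data known. Named were all members and, of each pathway list, genes past 1.5-fold, the 3 largest ratios and the 2 brightest; of each marker list, the 3 largest ratios, given in part. The homeolog pairs past 1.5-fold, pdk4.L, the genes under the floor and list genes outside these rules were named after their values were seen. The procedure was tested on simulated data. Python 3.11.15, numpy 2.4.6, pandas 2.3.3, statsmodels 0.14.6 and matplotlib 3.10.9 were used.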

Additional observations from a re-analysis of the deposited data

How the results depend on the processing

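No paired analysis was possible because a single array stood for each group, and no replicate could be left out. Of 12 alternatives 11 were planned; adding the probe set for both aldoa copies and the Gapd controls was chosen after seeing the data. The log2 ratio of pkm.L ranged from 0.72 to 0.92 and that of pkm.S from 0.73 to 0.85, past 1.5-fold in each alternative that measured them. Of the 14 genes 13 kept their sign in every alternative that measured them, the exception being tpi1.S, which read -0.00 as its brightest probe set. The others have a single probe set each, so alternatives that choose among probe sets could not change them. The Gapd controls entered apart from gapdh.L, whose value therefore stayed the same there although the brighter controls read the other way. The median over the enzymes was -0.15 with the filter at the 75th percentile, which left 6 genes. Below 0 were 2 of 10 genes with each homeolog pair as 1 gene, against 5 of 14 with the copies apart. The count was 6 of 14 by the brightest probe set and 7 of 16 with the added probe sets. It was 5 of 11 with the filter applied to members and 4 of 6 with the filter at the 75th percentile. The median of the gluconeogenesis and glycogen list was 0.47 with that stricter filter. With each homeolog pair as 1 gene, the medians of the shuttles and of the citric acid cycle turned to -0.03 and -0.02 and that of the regulators came to -0.10. With the filter applied to list members, the regulators turned to 0.10, or 0.12 at the 75th percentile, and the pentose phosphate median came to 0.13, as it did with the higher floor. With the added constant the other glycolytic steps came to -0.09 and the gluconeogenesis and glycogen list to 0.12. Counts over all kept probe sets varied with the floor and the filter. In the main setting 195 of 7747 were 1.5-fold or more higher and 262 lower, and 27 and 21 by 2-fold. With 50 added to every signal in place of the floor, 79 were 1.5-fold or more higher and 103 lower, and 14 and 2 by 2-fold. Without a filter these were 474 and 644, and 61 and 74. With the filter at the 75th percentile they were 57 and 84, and 12 and 1. Dropping or raising the filter also changed how many probe sets were counted, so these counts are not comparable as shares. Low signal limits hk1.L, gpi.S, ldhb.L and most of tpi1.S.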

Other observations

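Further routes that touch glycolysis were looked up after the results above were seen. The hexosamine branch, which diverts fructose phosphate to sugar nucleotides for glycosylation, had 4 genes with a ratio and 3 above 0, against 46.1% of all genes. The entry enzyme genes gfpt1.S and gfpt2.L read 0.46 and 0.44 on the log2 scale, the former from 869.0 to 1201.5, while uap1.S, at the end of the branch, read -0.30. The glycosyltransferase gene ogt.L read 0.25. Serine-glycine exchange was flat, with shmt1.L at 0.08 and shmt2.L at -0.03.

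Splicing factors known in mammals to choose between the forms of pyruvate kinase differed little in their gene means. The 6 genes with a ratio had a median of 0.07, with hnrnpa1.S at 0.23, hnrnpa1.L at 0.18, ptbp1.S at 0.08, ptbp1.L at -0.15 and srsf3.S at -0.09. Of the 6, 0 were past 1.5-fold, against 2.76% of all genes higher and 5.15% lower. The mean of ptbp1.L combined a dim probe set at -0.58 with a brighter one at 0.28. A further gene of the list, hnrnpa2b1.L, was under the floor in both arrays. Of the energy-buffering kinases, the creatine kinase gene ckb.L read 174.4 and 129.7, a log2 ratio of -0.44. In the other direction, the dim mitochondrial creatine kinase gene ckmt1b.S, under the floor in the wildtype-labelled array, was at least 1.75-fold higher in the depleted-labelled array. The muscle creatine kinase gene ckm.L had probe sets at -0.57, -0.12 and 0.23, with a mean of -0.15.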
